A study of Mus musculus with 16 samples.

Results

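The ionotropic glutamate receptors are the glutamate-gated cation channels, and 9 mouse genes of this family were listed: the AMPA receptor subunits Gria1, Gria2, Gria3 and Gria4, the NMDA receptor subunits Grin1, Grin2c and Grin2d, and the kainate receptor subunits Grik2 and Grik5. A probe set counted for a gene only if the array's annotation gave it that gene alone, and the probe set with the highest mean signal over all 16 arrays stood for the gene. By this rule 8 of the 9 genes were found among 18193 measured genes, with 16 probe sets in all. Grin1, the obligatory NMDA receptor subunit, had no such probe set in this annotation and was not analysed here. The probe set was thus chosen by its measured signal over both groups together, which is a description and carries no test. The genes themselves were chosen by name, with results of these data in view. The choice was close for Gria4, where the used probe set averaged 4.69 and the next one also 4.69.

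AMPA receptors carry most fast excitatory transmission in the brain. They are built from GluA subunits, and the GluA2 subunit, encoded by Gria2, makes them nearly impermeable to calcium once its transcript has been edited at the pore. NMDA receptors pair GluN1 with GluN2 subunits, need glycine or D-serine beside glutamate, and pass calcium. Kainate receptors assemble from GluK subunits, of which GluK5 works only together with a partner such as GluK2. In pancreatic islets, glutamate released by alpha cells is known to act on AMPA and kainate receptors, and NMDA receptors of beta cells are known to modulate insulin secretion.

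The arrays read 8 islet preparations from mutant mice of the genotype RIPcreER; Insm1flox/lacZ and 8 from control mice of the genotype RIPcreER; Insm1flox/+. The submitters describe the controls as matched by litter. RIPcreER is a Cre recombinase under an insulin promoter that becomes active with tamoxifen, so deletion of Insm1, which encodes a transcription factor with zinc fingers made in endocrine cells, is directed to beta cells. Both groups carried the recombinase and a floxed allele and received tamoxifen (25 mg, released over 21 days) at 4 to 5 weeks of age, with islets taken at 8 to 12 weeks. All mice were of a mixed C57BL/6, 129/ola and CBA/J background. The mutants differ from the controls in the second allele, which is lacZ in every cell of the mutant and wild type in the control, so control beta cells may also have lost 1 allele. One array was hybridised per islet preparation, and the number of arrays limits the precision. Values are log2 signals and differences are mutant minus control. Nothing in the labels says that a preparation was split or repeated. The p-values of the main comparison rest on the spread between these preparations, including any part shared by arrays of the same replicate number.

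Islet hormone transcripts read high in the preparations. Ins2, Iapp, Gcg, Sst and Ppy averaged 14.2 to 15.4 in both groups, close to the highest value of the data, 15.39. Of 6 beta-cell markers, Ins2 and Iapp were not called (limma, adjusted p under 0.05) and the other 4 were called lower in the mutant. The mean of 9 acinar-cell markers also read high, up to 13.59 on mutant and 13.95 on control arrays. The hormone signals thus do not show that the preparations held islet cells alone. Insm1 itself averaged 11.02 in mutant islets and 11.26 in control islets, a difference of −0.25 ± 0.11 (SE, limma adjusted p = 0.182). Where its probes lie relative to the deleted part is not stated in the labels. This signal therefore does not check the genotype labels. The islets were not sorted, so less RNA per cell and fewer cells of a type cannot be told apart. The array medians lay between 6.29 and 6.35.

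Promoter windows from RefSeq on GRCm38.p6 were held for 7 of the 9 genes, each running from 250 bases before to 50 bases after an annotated start. They were searched on both strands for GGGGNCG, the core of the Insm1 motif, CAGATG, an E-box bound by Neurod1, TGTTTAC, bound by Foxa factors, and TTCAGCACC and GGACAGC, the left and right ends of the site of the repressor Rest. The first 3 factors are those in the study's title, and Gria2 is a known target of Rest in rodent neurons. Shown here are Gria2 and Grin2c, which differed between the groups and had a window, and Grik5. Grik5 did not pass the test, and its window held the most matches of the 7. Capitals mark every exact match. Gria2 lies on the minus strand of chromosome 3 with its window at chr3:80802786-80803085, Grin2c on the minus strand of chromosome 11 at chr11:115267194-115267493, and Grik5 on the minus strand of chromosome 7 at chr7:25072320-25072619.
Gria2: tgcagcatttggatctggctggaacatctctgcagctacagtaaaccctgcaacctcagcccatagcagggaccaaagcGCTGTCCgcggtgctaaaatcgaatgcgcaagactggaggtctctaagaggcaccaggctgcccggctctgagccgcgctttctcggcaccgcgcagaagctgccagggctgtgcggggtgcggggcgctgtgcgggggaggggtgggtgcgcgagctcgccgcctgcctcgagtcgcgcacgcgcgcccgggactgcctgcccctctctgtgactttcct
Grin2c: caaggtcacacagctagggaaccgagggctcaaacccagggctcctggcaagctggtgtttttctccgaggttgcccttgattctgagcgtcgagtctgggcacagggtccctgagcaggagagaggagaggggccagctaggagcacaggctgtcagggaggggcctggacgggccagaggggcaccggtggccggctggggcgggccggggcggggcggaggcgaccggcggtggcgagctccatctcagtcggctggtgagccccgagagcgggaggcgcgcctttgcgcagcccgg
Grik5: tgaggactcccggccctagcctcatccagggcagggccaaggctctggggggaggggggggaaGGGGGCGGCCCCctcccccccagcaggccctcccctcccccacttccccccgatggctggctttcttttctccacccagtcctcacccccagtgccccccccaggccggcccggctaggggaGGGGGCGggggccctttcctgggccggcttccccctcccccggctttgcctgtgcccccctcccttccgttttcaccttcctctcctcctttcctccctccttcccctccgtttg
The Gria2 window held GGACAGC once, on the opposite strand, at bases 80 to 86 of the window. GGACAGC is found in 6.56% of all 32851 windows. The Grik5 window held the Insm1 core GGGGNCG 3 times, and 2 of these matches overlap, at bases 64 to 70 and 69 to 75 of the window. That core is found at least once in 25.1% of all windows, and the share that holds it 3 times was not counted. None of the 5 motifs was in the Grin2c window. The other motifs are found in 17.2% (CAGATG), 3.65% (TGTTTAC) and 0.371% (TTCAGCACC) of windows. Among the windows not printed, Grin1 and Grin2d held GGGGNCG once each, and Gria4 and Grik2 held none of the motifs. These are matches of letters in a window and no evidence of binding.

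Of the 8 measured receptor genes, 2 AMPA receptor genes rose in mutant islets, Gria2 by 1.80-fold and Gria3 by 2.10-fold, and 1 NMDA receptor gene, Grin2c, fell by 0.34 on the log2 scale. The other 5, Gria1, Gria4, Grin2d, Grik2 and Grik5, did not pass the test. Among all 18193 genes, 4.10% were called higher in the mutant and 4.66% lower by limma at an adjusted p under 0.05, or 8.76% in either direction. The mutant and control arrays of all 8 receptor genes overlapped on the brightest probe set, while the groups of 2.29% of all genes did not. The median difference of the 8 receptor genes was 0.05, against −0.01 over all genes. The receptor genes were listed with results of these data known, so their counts are a description.

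**Figure D1:**
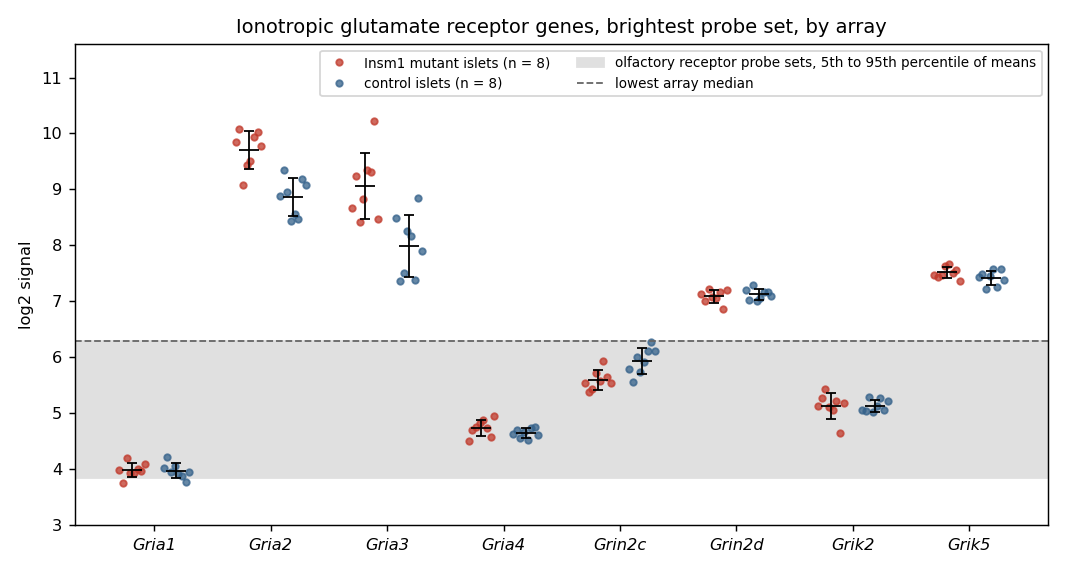
Log2 signal (vertical axis) of the brightest probe set of each measured receptor gene on each array, with mutant islets on the left and control islets on the right of each pair. Black bars are the mean ± SD of 8 arrays, the dashed line is the lowest array median of 6.29, and the grey band spans the 5th to 95th percentile of the means of 44 olfactory receptor probe sets. Gria2 and Gria3 sit above the band and higher in the mutant, and Grin2c lies inside the band in both groups.

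Gria2 encodes the GluA2 subunit and lies at chr3:80681450-80804227 (GRCm38.p6). Its signal on mutant arrays ran from 9.08 (lowest) through a median of 9.81 to 10.07 (highest), and on control arrays from 8.43 through 8.91 to 9.35. The groups overlapped because mutant replicate 3 lay below the highest control, while the other 7 mutant arrays lay above all controls. The means were 9.71 ± 0.34 in mutant islets and 8.86 ± 0.35 in control islets (SD, n = 8 each), a difference of 0.85 ± 0.16 (SE) with a 95% interval of 0.51 to 1.18 (limma adjusted p = 0.0023 over all genes). The mutant array was higher than its same-numbered control in 8 of 8 pairs, by 0.14 in pair 3 and up to 1.46 in pair 6.

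The other 2 probe sets of Gria2 were also called higher, against 3.15% of all probe sets. The first averaged 8.69 ± 0.42 on mutant arrays and 8.07 ± 0.21 on control arrays, a difference of 0.62 ± 0.15 (SE, adjusted p = 0.0194 over all probe sets). The second averaged 7.61 ± 0.25 on mutant arrays and 6.73 ± 0.35 on control arrays, a difference of 0.88 ± 0.14 (SE, adjusted p = 0.000902 over all probe sets). On this last probe set every mutant array, from 7.25 up to 7.97, lay above every control array, from 6.16 up to 7.16. On the other 2 probe sets of Gria2, the brightest among them, the groups overlapped. Of all genes on their brightest probe set, 1.19% had every mutant array above every control array. That share was not counted over all probe sets. The rise of Gria2 was thus seen by all 3 of its probe sets, which were read on the same arrays and are no replicates of each other.

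Gria3 encodes GluA3, which often assembles with GluA2, and lies at chrX:41400819-41678601 (GRCm38.p6). Its signal on mutant arrays ran from 8.42 through a median of 9.03 to 10.22, and on control arrays from 7.36 through 8.04 to 8.85. The groups overlapped, with 4 of the 8 mutant arrays above the highest control. The means were 9.06 ± 0.60 in mutant islets and 7.99 ± 0.55 in control islets (SD, n = 8 each), a difference of 1.07 ± 0.26 (SE) with a 95% interval of 0.52 to 1.62 (limma adjusted p = 0.0144 over all genes).

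Gria3 varied more within each group than Gria2 did. The pair differences of Gria3 ran from 0.18 in pair 1 to 1.93 in pair 6, all 8 higher in the mutant. Replicate 7 had the highest signal of its group in both genotypes, 10.22 in the mutant and 8.85 in the control. The second probe set of Gria3 averaged 7.94 ± 0.78 on mutant arrays and 7.07 ± 0.59 on control arrays, a difference of 0.87 ± 0.31 (SE) that did not pass the test over all probe sets (adjusted p = 0.12), and it was higher in the mutant in 7 of 8 pairs.

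Grin2c encodes GluN2C, an NMDA receptor subunit best known from cerebellar granule cells, and lies at chr11:115249169-115267297 (GRCm38.p6). Its single probe set read from 5.37 through a median of 5.56 to 5.93 on mutant arrays, and from 5.55 through 5.96 to 6.28 on control arrays. The groups overlapped, with 4 mutant arrays below the lowest control. The means were 5.59 ± 0.17 in mutant islets and 5.94 ± 0.24 in control islets (SD, n = 8 each), a difference of −0.34 ± 0.10 (SE) with a 95% interval of −0.55 to −0.13 (limma adjusted p = 0.0388 over all genes). All 8 pairs had the mutant below the control, by as little as −0.02 in pair 4 and as much as −0.63 in pair 7.

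Both means of Grin2c lay below the lowest array median of 6.29. Without any 1 of 11 arrays (mutant replicates 1, 2, 3, 5, 7 and 8, control replicates 3, 5, 6, 7 and 8) its adjusted p rose above the threshold, up to 0.0792, while the difference stayed between −0.40 and −0.30. Its call was also lost without the arrays numbered 1 to 3 (−0.35, adjusted p = 0.0979). None of these fits paired the arrays by replicate number. With the pairs and no array left out, the difference of Grin2c was −0.343 ± 0.076 (SE, limma adjusted p = 0.00994).

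**Figure D2:**
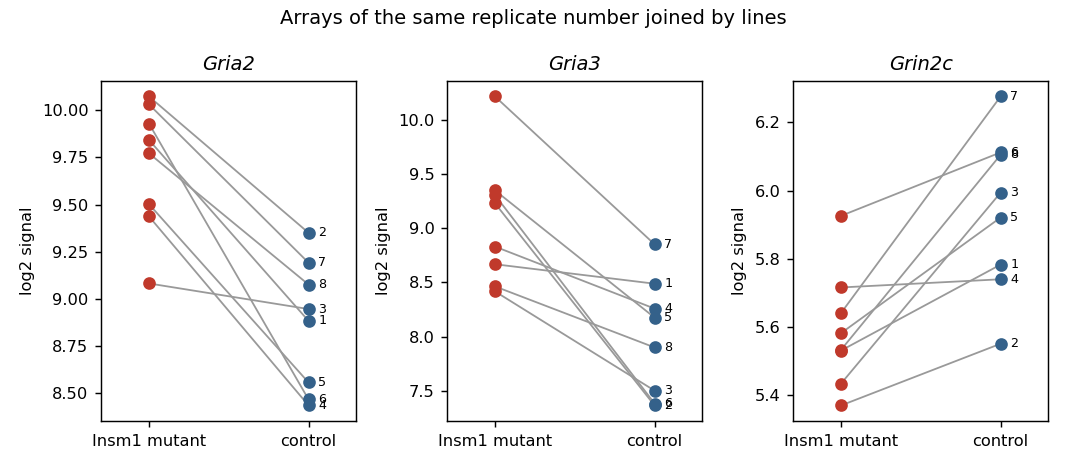
Log2 signal (vertical axes) of Gria2, Gria3 and Grin2c, with mutant islets on the left and control islets on the right and lines joining arrays that share a replicate number (printed at the right). All 8 lines slope down towards the control for Gria2 and Gria3, nearly flat for pair 3 of Gria2, and all 8 slope up for Grin2c.

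Gria1 and Gria4, the remaining AMPA receptor genes, read low. Gria1 averaged 3.98 ± 0.13 in mutant islets and 3.97 ± 0.13 in control islets, with a difference of 0.01 and a 95% interval of −0.13 to 0.14 (limma adjusted p = 0.966). Gria4 averaged 4.74 ± 0.15 in mutant islets and 4.64 ± 0.08 in control islets, a difference of 0.09 with an interval of −0.04 to 0.22 (adjusted p = 0.426). The 3 other probe sets of these genes did not pass the test either. Probe sets of olfactory receptor genes, which islets are not known to use, give a scale for such signals: the means of 44 of them had a 5th percentile of 3.83, a median of 4.61 and a 95th percentile of 6.29. Gria1, Gria4, Grik2 and Grin2c all read within that range, and no detection calls were used here, so transcripts of these genes may not have been measured above background.

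Grin2d, which encodes GluN2D, averaged 7.09 ± 0.12 in mutant islets and 7.13 ± 0.10 in control islets, a difference of −0.03 with a 95% interval of −0.16 to 0.09 (limma adjusted p = 0.814). Its second probe set averaged 6.28 in mutant islets and 6.21 in control islets, within the range of the olfactory receptor probe sets. It differed by 0.06 ± 0.08 (SE, adjusted p = 0.734 over all probe sets). Both signs were thus seen, neither past the test.

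Grik5, which encodes the high-affinity kainate receptor subunit GluK5, averaged 7.51 ± 0.10 in mutant islets and 7.42 ± 0.13 in control islets, a difference of 0.09 with a 95% interval of −0.04 to 0.23 (limma adjusted p = 0.438). Grik2, its usual partner, averaged 5.13 ± 0.23 in mutant islets and 5.13 ± 0.11 in control islets, with an interval of −0.19 to 0.18 (adjusted p = 0.984). The intervals of the 5 genes that did not pass reached from −0.19 to 0.23 at the widest. Only those of Grin2d and Grik5 belong to genes whose brightest probe set read above the range of the olfactory receptor probe sets.

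**Figure D3:**
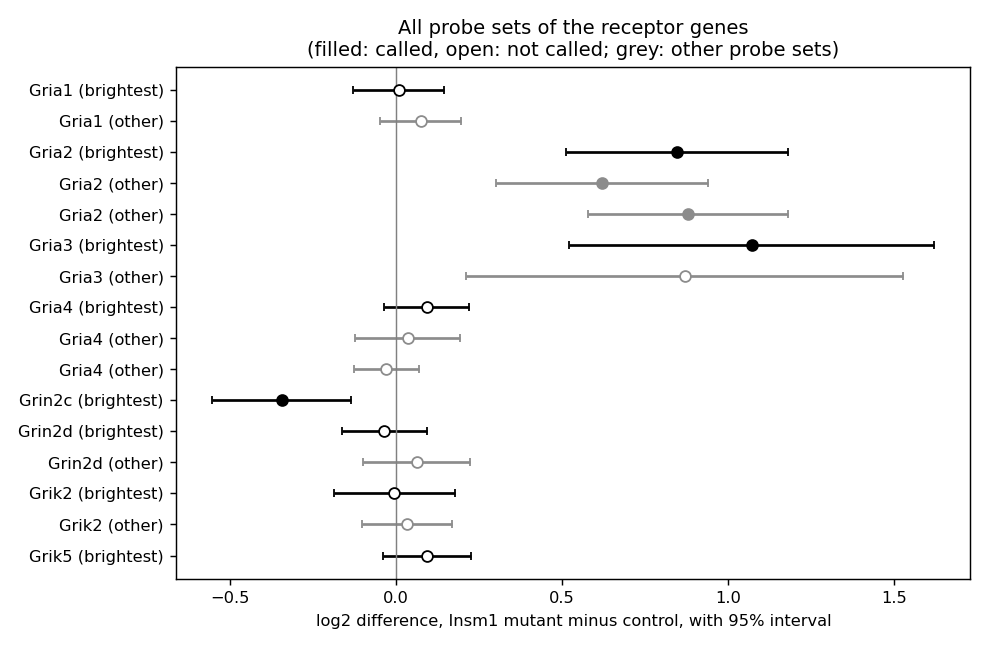
Log2 difference, mutant minus control (horizontal axis), with its 95% interval for all 16 probe sets of the measured receptor genes, with 8 arrays per group. Filled points passed the test at an adjusted p under 0.05 (over genes for the brightest probe sets in black, over probe sets for the others in grey): all 3 of Gria2, 1 of 2 of Gria3 and the 1 of Grin2c.

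The means of some marker lists of other cells differed between the groups in the same preparations. The mean of 9 acinar-cell markers ran from 8.55 to 13.59 on mutant arrays and from 11.70 to 13.95 on control arrays with the mutant lower in all 8 pairs and 0 of the 9 called. The mean of 4 alpha-cell markers ran from 11.36 to 11.88 on mutant arrays and from 11.01 to 11.44 on control arrays and was higher in the mutant in 8 of 8 pairs. Irx1 and Irx2 were the 2 alpha-cell markers called, higher by 0.54 and 0.75. The hormone gene Gcg, which read close to the highest value of the data, was not called (0.07, limma adjusted p = 0.465). Ttr was not called either (0.12, adjusted p = 0.154), though 1 of its 3 other probe sets was called higher. Whether the share of alpha cells differed was not tested.

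RNA quality was read from the control probe sets at the 3′ and 5′ ends of beta-actin and Gapdh. The mean 3′ minus 5′ difference ran from 0.28 to 0.47 on mutant arrays and from 0.33 to 0.57 on control arrays, and all 8 pairs had the smaller value in the mutant. The mean of 12 immune-cell markers (0 called) ran from 7.30 to 9.34 on mutant arrays and from 7.28 to 8.43 on control arrays. Of the other lists, beta-cell markers had 4 of 6 called, all lower, and duct-cell markers 1 of 6 lower. Called higher were 1 of 5 delta-cell and PP-cell markers, 1 of 11 neuron markers (Nefm) and 2 of 8 stromal-cell markers, of which 1 more was lower. Of pan-endocrine, Schwann and glial, and endothelial markers (6, 6 and 7 measured) 0 were called. The mean of the 6 Schwann and glial markers ran from 6.15 to 6.84 on mutant arrays and from 6.03 to 6.50 on control arrays. It was higher in the mutant in 6 of 8 pairs, and the differences of the single markers ran from −0.08 to 0.49.

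With the replicate numbers as pairs and the acinar mean as a covariate, the difference of Gria2 was 0.45 (adjusted p = 0.157), that of Gria3 0.61 (adjusted p = 0.339) and that of Grin2c −0.49 (adjusted p = 0.0911), and 0 receptor genes were called. With the alpha-cell mean as a covariate, that of Gria2 was 0.82 (adjusted p = 0.0889), that of Gria3 0.23 (adjusted p = 0.743) and that of Grin2c −0.61 (adjusted p = 0.0159). With the pairs and the 3′ minus 5′ difference as a covariate, that of Gria2 was 1.255 (adjusted p = 0.0232), that of Gria3 0.59 (adjusted p = 0.61) and that of Grin2c −0.16 (adjusted p = 0.784). These fits also called fewer of all genes, with 410 higher (2.25%) and 292 lower (1.61%) in the first, 240 and 357 in the second and 102 and 136 in the third, against 746 and 848 with neither pairs nor covariate and 1433 and 1767 with the pairs alone. Without the arrays numbered 1 to 3, Gria2 was still called (0.99, adjusted p = 0.0081) and Gria3 was not (1.12, adjusted p = 0.0773), where 2.09% of all genes were called higher and 2.46% lower. The part that other cells or RNA quality have in these differences was not tested.

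**Figure D4:**
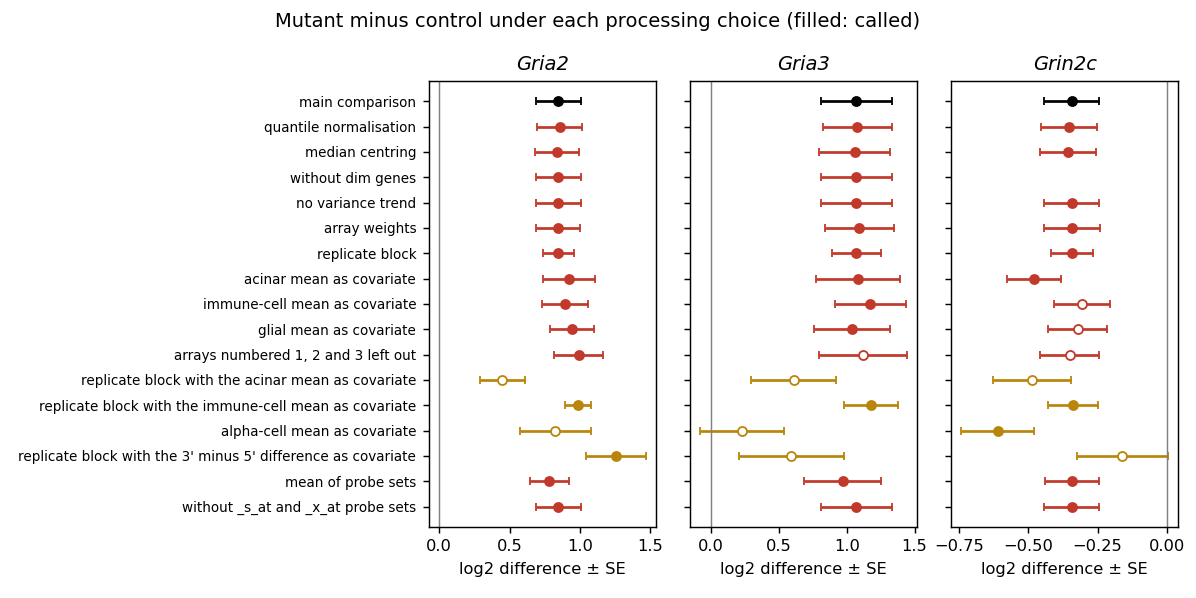
Log2 difference, mutant minus control, ± SE (horizontal axes) of Gria2, Gria3 and Grin2c under each processing choice (rows), with black for the main comparison, red for choices listed at the start and ochre for those added later. Filled points passed the test at an adjusted p under 0.05, and every point keeps the sign of the main comparison. The largest shift is that of Gria3 with the alpha-cell mean as a covariate, at 0.23.

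The genes whose array-to-array pattern was most like that of each receptor gene that passed were found by the Pearson correlation of deviations from the group means over 16 arrays, given as a description. For Gria2 these were Ehbp1 (r = 0.819) and Ttc14 (r = 0.815). For Gria3 they were Septin3 (r = 0.894) and Patz1 (r = 0.879), and for Grin2c Mios (r = 0.819) and Calb1 (r = 0.811). Each is 1 of the 2 highest values in a search over 18193 genes, and how high such a search reaches by chance was not tested. All these values rest on the same 16 arrays. Same-numbered arrays of the 2 groups deviated together, and the pairs were not taken out, so the 16 deviations of a gene are not independent.

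Other genes of glutamate signalling passed the test about as often as all genes. Of 69 measured genes in 7 lists, 2 were called higher in the mutant and 4 lower, which is 2.9% and 5.8% of them against 4.10% and 4.66% of all genes. With the replicate numbers as pairs 3 were called higher and 7 lower, where 7.88% of all genes were called higher and 9.71% lower. None of the 8 other ionotropic receptor subunits measured (Grin2a, Grin2b, Grin3a, Grin3b, Grik1, Grik3, Grik4 and Grid1) passed. Their differences ran from 0.01 to 0.08, their 95% intervals lay within −0.16 and 0.23, and their adjusted p ran from 0.512 to 0.952. All but Grin3b read within the 5th to 95th percentile of the olfactory receptor probe sets in both groups. Grin3b averaged 6.59 in mutant islets and 6.57 in control islets, below the highest olfactory receptor mean of 6.89. These intervals therefore do not limit the change of transcripts that may lie below background.

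Of 15 measured scaffold and trafficking genes 1 rose and 3 fell. Dlg3, which encodes SAP102, a postsynaptic scaffold for NMDA and AMPA receptors, averaged 8.51 ± 0.07 in mutant islets and 8.96 ± 0.07 in control islets, a difference of −0.46 ± 0.05 (SE, limma adjusted p = 8.18e-06), and no array of the mutant reached the lowest control. Dlg2, which encodes the related scaffold PSD-93, averaged 5.69 ± 0.51 in mutant islets and 4.75 ± 0.27 in control islets, a difference of 0.94 ± 0.19 (SE, adjusted p = 0.00356), with every mutant array above every control array. Of all genes, 1.19% and 1.09% had groups that did not overlap, with the mutant higher and lower. Both means of Dlg2 are in the range of the olfactory receptor probe sets. Neither of its 2 other probe sets was called, and the mean of its probe sets differed by 0.35 (adjusted p = 0.0988).

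Grip1, whose protein binds the tails of GluA2 and GluA3, averaged 7.42 ± 0.23 in mutant islets and 7.86 ± 0.22 in control islets, a difference of −0.44 ± 0.11 (SE, limma adjusted p = 0.014). All 8 pairs had the mutant lower. Dlg1, which encodes SAP97, was lower by −0.17 ± 0.05 (SE, adjusted p = 0.0365), a call lost without any 1 of 10 arrays (6 mutant arrays, replicates 2, 3, 4, 5, 7 and 8, and 4 control arrays, replicates 2, 5, 6 and 7), where the adjusted p reached 0.0724 at most. The other probe sets of Grip1 (1) and Dlg1 (2) were not called, and the mean of the probe sets of Dlg1 differed by −0.12 (adjusted p = 0.179).

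Adarb1, whose protein edits the Gria2 transcript at the codon that sets calcium permeability, averaged 8.25 ± 0.17 in mutant islets and 8.65 ± 0.19 in control islets, a difference of −0.40 ± 0.09 (SE, limma adjusted p = 0.00679). The mutant was the lower one of all 8 pairs, and 7 of 8 mutant arrays lay below the lowest control. Neither of its other 2 probe sets was called, and averaging its 3 probe sets lost the call (−0.16, adjusted p = 0.069). An array of this kind does not read editing.

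Glud1, which encodes the mitochondrial enzyme that turns glutamate into alpha-ketoglutarate, averaged 10.62 ± 0.17 in mutant islets and 10.34 ± 0.07 in control islets, a difference of 0.28 ± 0.07 (SE, limma adjusted p = 0.0141). Its second probe set was also called higher. Without the arrays numbered 1 to 3 the calls of Glud1 (0.30, adjusted p = 0.0521), Dlg2 (0.72, adjusted p = 0.0619), Grip1 (−0.46, adjusted p = 0.0906) and Adarb1 (−0.30, adjusted p = 0.151) were lost, as was that of Dlg1 (−0.16, adjusted p = 0.258), and that of Dlg3 was not. The same 5 calls were lost, and that of Dlg3 was not, with the alpha-cell mean as a covariate. The difference of Glud1 was then 0.13 (adjusted p = 0.512), and it was 0.20 with the acinar mean (adjusted p = 0.0799) and 0.10 with the pairs and the acinar mean (adjusted p = 0.682). The other 12 measured genes of glutamate and co-agonist metabolism were not called. In the remaining lists 0 genes were called, and the lowest adjusted p were those of Cpt1c among 17 auxiliary subunit genes (0.22 ± 0.08 SE, adjusted p = 0.132), Slc1a2 among 7 glutamate transporters (0.08 ± 0.06 SE, adjusted p = 0.522) and Grm2 among 6 metabotropic receptors (−0.08 ± 0.06 SE, adjusted p = 0.545).

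**Figure D5:**
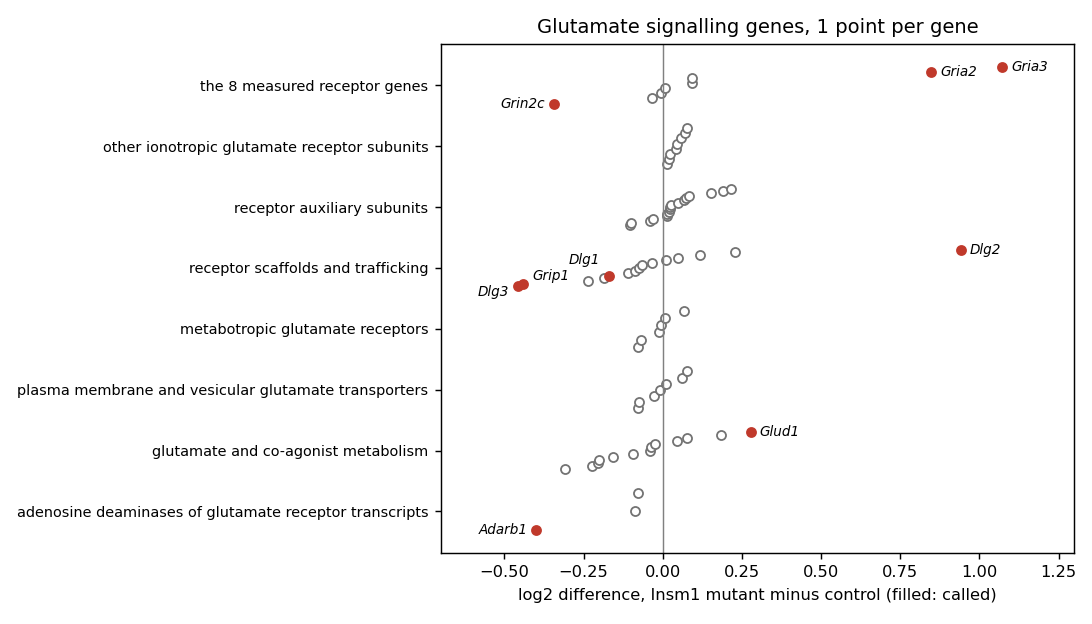
Log2 difference, mutant minus control (horizontal axis), for each measured gene of the receptor list and of 7 other glutamate signalling lists (rows), 1 point per gene, with filled red points passing the test. Named are the 3 receptor genes and the 6 others that passed.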

How the data were processed

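Per the labels' protocols, total RNA was extracted with Trizol and 150 ng was labelled with biotin for 3′ IVT arrays, 1 array per preparation. The deposited values are log2 signals of the authors, 1 per probe set, and their background correction, summary and normalisation are not given in the sources used here. Their log base was taken from their range. From 45101 probe sets 64 controls were removed. The platform annotation gave 1 gene for 34945 of the remainder, several for 932 and none for 9160. RefSeq (GRCm38.p6) supplied current symbols for 34741 by gene ID.

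The comparison of mutant with control used limma (version 3.58.1, lmFit and eBayes with a variance trend, R 4.3.3), two-sided, with Benjamini-Hochberg adjustment over all 18193 genes (over all 45037 probe sets for other probe sets of a gene) and a threshold of 0.05. No filter on dim genes was applied. The receptor genes, the 7 glutamate lists and the 11 marker lists were chosen with earlier results of these data known. All receptor genes are named. Of each other glutamate list, up to 4 called genes, or the one with the lowest p, are named.

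Replicate numbers are common to both groups. Same-numbered arrays deviated together from their group means (correlations of 0.237 to 0.735 in 8 pairs), so the numbers were taken to pair the arrays. The main comparison and the fits that left out an array did not use the pairs. Their SEs, intervals and p-values thus include the spread shared within pairs. With the replicate numbers as a block, the SE fell from 0.159 to 0.111 for Gria2, from 0.261 to 0.182 for Gria3 and from 0.099 to 0.076 for Grin2c. It rose from 0.065 to 0.074 for Gria1 and from 0.061 to 0.069 for Gria4. The fit with that block is given where it changes a call or moves a count by over 1.5 times. The promoter windows come from a RefSeq table.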

Additional observations from a re-analysis of the deposited data

Results flagged for a closer look

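Each of the 16 probe sets was checked in both groups for an array far from the other 7 of its group, which is 32 checks, and chance gives about 1 such value in 20. For the second probe set of Gria2, mutant replicate 3 read 7.725, against 8.62 for the next lowest mutant array. This array also had the lowest mutant signal on the other 2 probe sets of Gria2. For the second probe set of Grin2d, control replicate 4 read 5.972, against 6.16 for the next lowest control array.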

How the results depend on the processing

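Under 16 alternatives and 16 fits without 1 array, the differences of Gria2, Gria3 and Grin2c kept their direction wherever they were tested (the filter on dim genes removed Grin2c, Gria1, Gria4 and Grik2). Without 1 array, Gria2 ranged from 0.79 to 0.94, Gria3 from 0.91 to 1.19 and Grin2c from −0.40 to −0.30, and the receptor genes called lower numbered 0 or 1. The replicate block changed no receptor gene's call (limma adjusted p = 0.000441 for Gria2, 0.00225 for Gria3 and 0.00994 for Grin2c). Calls lost were Gria2 with the alpha-cell mean (0.824) or with the block and acinar mean (0.448), Gria3 without the arrays numbered 1 to 3 (1.121), with the block and acinar mean (0.608), with the alpha-cell mean (0.229) or with the block and 3′ minus 5′ difference (0.592), and Grin2c with the immune-cell mean (−0.306), the glial mean (−0.321), without the arrays numbered 1 to 3 (−0.351), with the block and acinar mean (−0.487) or with the block and 3′ minus 5′ difference (−0.160). The causes were not tested. The fits that combine the block with a covariate, and the one with the alpha-cell mean, were chosen after seeing the data. The receptor genes called higher (2) became 1 without the arrays numbered 1 to 3 and with the block and 3′ minus 5′ difference, and 0 with the block and acinar mean and with the alpha-cell mean. Those called lower (1) became 0 in the fits named for Grin2c and without dim genes. Other glutamate genes called higher (2) became 1 without dim genes, with the acinar mean, the block and acinar mean and the mean of probe sets, and 0 without the arrays numbered 1 to 3, with the alpha-cell mean and with the block and 3′ minus 5′ difference. Those called lower (4) became 7 with the block, alone or with the immune-cell mean, 2 with the block and acinar mean and with the mean of probe sets, and 1 without the arrays numbered 1 to 3, with the alpha-cell mean and with the block and 3′ minus 5′ difference. Other probe sets of the receptor genes called higher (2) became 1 with the acinar mean and 0 with the block and acinar mean, the alpha-cell mean, and the block and 3′ minus 5′ difference. Over all genes, the 746 higher and 848 lower became 1433 and 1767 with the block and 380 and 448 without the arrays numbered 1 to 3. Signals near background limit what can be said of Gria1, Gria4, Grik2 and Grin2c.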
